A study of Mus musculus with 8 samples.

Results

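The 10 genes described here are markers of the endothelial cells that line the vessels of the liver. They were chosen by name as 6 genes of sinusoidal endothelium (Stab1, Stab2, Lyve1, Clec4g, Fcgr2b and Kdr), 2 of continuous endothelium (Plvap and Cd34) and 2 shared by both (Pecam1 and Cdh5). All 10 were found among the 54838 genes of the count tables, and all 10 passed the filter on low counts. They were measured by bulk RNA sequencing in 8 libraries, labelled as 4 tumour and 4 non-tumour pieces of liver, from wild type male C57BL/6J mice. Every mouse had been given the carcinogen diethylnitrosamine (DEN) into the peritoneum on day 15 and a high-fat diet with SW, a term the labels leave unexplained. The labels place sampling at 30 weeks, in one place counted from the injection and in another as the length of the diet, so the exact age is not known. Which pieces came from the same mouse is not stated, and the p-values below reflect differences among the pieces, which may be technical. No untreated liver was analysed here.

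Sinusoidal endothelial cells form the wall of the liver's capillaries. They carry open pores called fenestrae, lack an ordinary basement membrane, and take up waste proteins, hyaluronan and small immune complexes from the blood through scavenger receptors. Continuous endothelium lines larger vessels and most capillaries elsewhere in the body. In chronic liver disease and in liver cancer, sinusoids can lose scavenger receptors and gain CD34 and a basement membrane, a change known as capillarisation. Setting tumours beside non-tumour pieces therefore asks whether either set of genes differed.

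The libraries held 15446690 to 21977052 counts, and they were not all distinct. Tumours 2 and 4 had nearly the same counts over genes, and so had non-tumour pieces 2, 3 and 4. The chi-square per degree of freedom between their counts over genes, near 1 where libraries differ by sampling noise, was 1.58 to 3.28 in these 4 pairs and 71.7 to 164.9 in the other 24 pairs. Near-identical libraries were counted once, which left 3 tumour profiles (1, 2/4 and 3) and 2 non-tumour profiles (1 and 2/3/4). Whether they are repeat libraries of the same tissue or mislabelled ones cannot be told from the labels. Levels are given in CPM, counts scaled by library totals that were adjusted by TMM, and means ± SD are over these profiles.

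No member differed between tumours and non-tumour tissue beyond the spread between profiles. By edgeR (quasi-likelihood test, p adjusted by Benjamini-Hochberg), 0 of the 10 members and 0 of all 13650 genes (0%) had an adjusted p under 0.05, and each member had an adjusted p of 0.995. At an unadjusted p under 0.05 there were 0 members, against 451 of all genes (3.3%). DESeq2 called 0 members and 2 genes in all. With the 8 libraries taken as separate samples edgeR called 56 of 12880 genes (0.435%), and again 0 members. Tumour and non-tumour profiles overlapped for all 10 members. Of all genes, 9.99% had every tumour profile above, and 8.34% every tumour profile below, the non-tumour profiles. With only 10 members, such an overlap does not set them apart from other genes.

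What the members did show was a difference among pieces of the same group. Non-tumour 1 had the highest level of 9 of the 10 members, which 20.5% of all genes did. For Plvap that lead was narrow, at 35.13 CPM against 35.10 CPM in the library non-tumour 3. The lowest level was in tumour 3 or in non-tumour 2/3/4 for 8 of the 10, which 48.6% of all genes did. These rankings were chosen after the values were seen and carry no test. The plot of levels by library shows them gene by gene.

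**Figure D1:**
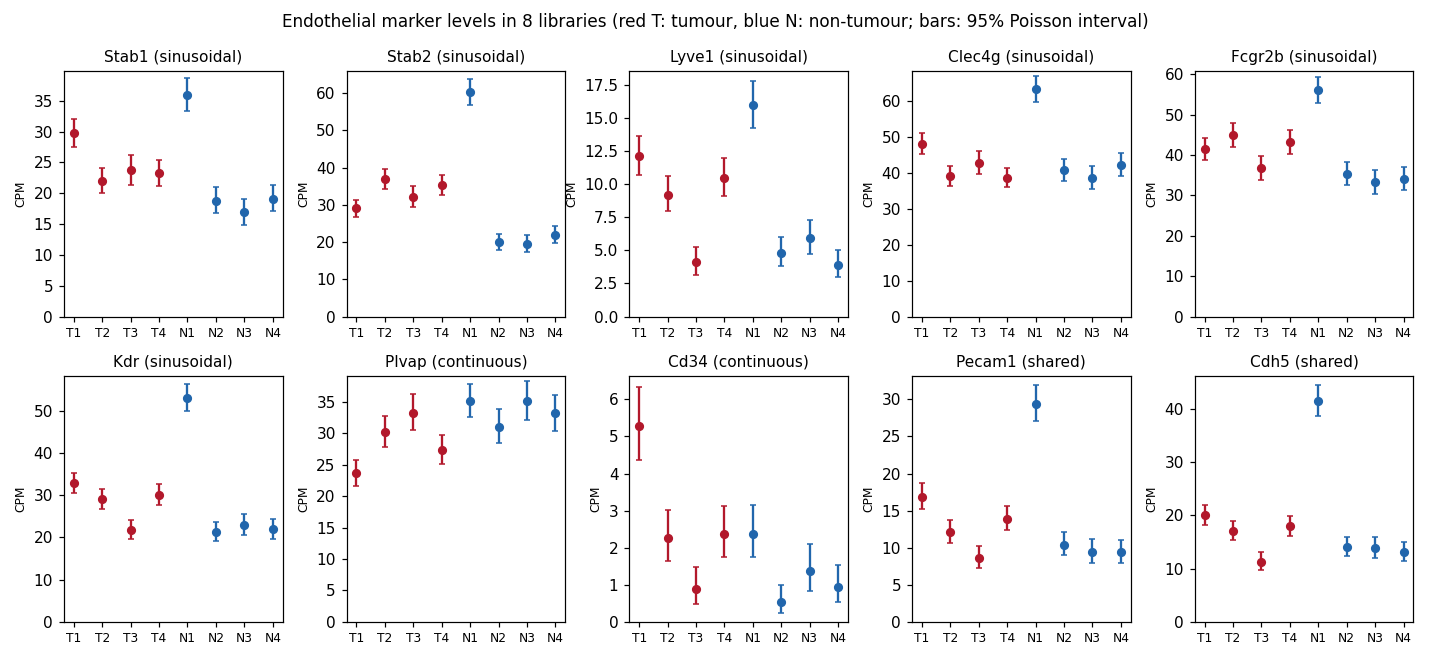
Level of each member (y axis, CPM from 0) in the 4 tumour libraries (red, T1 to T4) and the 4 non-tumour libraries (blue, N1 to N4), with bars for the 95% Poisson interval of the count. Non-tumour 1 stands highest in 9 of the 10 panels, though in the Plvap panel by very little. In the Cd34 panel tumour 1 is highest, and the Plvap panel is the flattest.

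The scavenger receptors of the sinusoid are described first. Stab2, stabilin-2, is the main receptor by which sinusoidal cells clear hyaluronan (chromosome 10, 86841198 to 87008025, minus strand, GRCm38). It stood at 29.1, 36.9, 32.0 and 35.3 CPM in tumours 1 to 4, against 60.2, 20.03, 19.5 and 21.9 CPM in non-tumour 1 to 4. The tumours lay close together, between the 1 high and the 3 low non-tumour libraries. The means were 32.4 ± 3.54 CPM in tumours (SD, n = 3) and 40.3 ± 28.1 CPM in non-tumour tissue (SD, n = 2). The log2 fold change was -0.32 (SE 0.42).

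Stab1, stabilin-1, is a scavenger receptor that macrophages also make (chromosome 14, 31139013 to 31168641, minus strand). It had 29.7, 21.97, 23.7 and 23.2 CPM in tumours 1 to 4, against 35.9, 18.8, 16.9 and 19.1 CPM in non-tumour 1 to 4. Every tumour was again below non-tumour 1 and above the other 3 non-tumour libraries. Its log2 fold change was -0.10 (SE 0.30). The proportion of Stab2 to Stab1 CPM was not constant, at 0.979, 1.68, 1.35 and 1.52 in tumours 1 to 4, against 1.67, 1.07, 1.15 and 1.14 in non-tumour 1 to 4.

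Lyve1 encodes a hyaluronan receptor found on sinusoidal and lymphatic endothelium and on some macrophages (chromosome 7, 110850607 to 110863239, minus strand). It had 12.1, 9.22, 4.12 and 10.4 CPM in tumours 1 to 4, against 16.0, 4.83, 5.93 and 3.93 CPM in non-tumour 1 to 4. Tumour 3 sat with the 3 low non-tumour libraries, and the other tumours sat between them and non-tumour 1. Its log2 fold change was -0.25 (SE 0.60). Between the highest and the lowest profile Lyve1 differed 3.88-fold, the widest range of the 6 sinusoidal genes.

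Fcgr2b encodes the inhibitory IgG receptor with which sinusoidal cells remove small immune complexes, and B cells and macrophages carry it too (chromosome 1, 170958617 to 170976547, minus strand). Its level was 41.4, 45.0, 36.7 and 43.2 CPM in tumours 1 to 4, against 56.0, 35.3, 33.3 and 34.0 CPM in non-tumour 1 to 4. All tumours exceeded the 3 low non-tumour libraries, by a small margin in tumour 3. Its log2 fold change was -0.15 (SE 0.24). Of its words of 50 bases, 4.38% also occur in transcripts of other genes, most often of its neighbour Fcgr3, and reads that map to several places were not counted. For the other 9 members that share was at most 0.998%.

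Clec4g, also called LSECtin, is a C-type lectin of sinusoidal cells (chromosome 8, 3707064 to 3720651, minus strand). It stood at 48.0, 39.1, 42.7 and 38.6 CPM in tumours 1 to 4, against 63.2, 40.8, 38.5 and 42.2 CPM in non-tumour 1 to 4. Apart from non-tumour 1 the pieces differed little, and the log2 fold change was -0.27 (SE 0.23).

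Kdr encodes VEGFR2, the main signalling receptor for VEGF-A, which continuous endothelium also carries (chromosome 5, 75932827 to 75978458, minus strand). It had 32.8, 29.0, 21.8 and 30.1 CPM in tumours 1 to 4, against 53.1, 21.3, 23.0 and 21.9 CPM in non-tumour 1 to 4. Tumour 3 was level with the 3 low non-tumour libraries. Its log2 fold change was -0.42 (SE 0.38).

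The shared genes were also highest in non-tumour 1. Cdh5 encodes VE-cadherin, which joins endothelial cells to each other (chromosome 8, 104101625 to 104144511, plus strand). It stood at 20.1, 17.1, 11.3 and 18.0 CPM in tumours 1 to 4, against 41.5, 14.0, 13.9 and 13.03 CPM in non-tumour 1 to 4. Pecam1 encodes CD31, an adhesion protein of endothelium that platelets and leukocytes also carry (chromosome 11, 106654217 to 106750628, minus strand). It stood at 16.9, 12.1, 8.61 and 13.9 CPM in tumours 1 to 4, against 29.4, 10.4, 9.41 and 9.42 CPM in non-tumour 1 to 4. For both genes tumour 3 was the lowest library and non-tumour 1 the highest. Their log2 fold changes were -0.75 (SE 0.47) for Cdh5 and -0.60 (SE 0.48) for Pecam1. The proportion of Cdh5 to Pecam1 CPM stayed within 1.19 to 1.41 in the tumours and 1.34 to 1.48 in the non-tumour libraries, so the pair moved together.

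The continuous endothelial genes differed from the others, each in its own way. Plvap was highest in non-tumour 1 only by a narrow margin, and Cd34 was highest in tumour 1. Plvap encodes the protein of the diaphragms that close the pores of fenestrated vessels and of caveolae (chromosome 8, 71497765 to 71511752, minus strand). It had 23.6, 30.2, 33.2 and 27.3 CPM in tumours 1 to 4, against 35.1, 31.0, 35.1 and 33.2 CPM in non-tumour 1 to 4. Its highest and lowest profiles differed 1.49-fold, less than for any other member, and non-tumour 1 exceeded non-tumour 2/3/4 only 1.06-fold. The means were 28.6 ± 4.80 CPM in tumours (SD, n = 3) and 34.1 ± 1.43 CPM in non-tumour tissue (SD, n = 2), with a log2 fold change of -0.26 (SE 0.19).

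Cd34 encodes a sialomucin of continuous capillary endothelium, of blood progenitors and of some fibroblasts (chromosome 1, 194938819 to 194961279, plus strand). It stood at 5.28, 2.26, 0.887 and 2.37 CPM in tumours 1 to 4, against 2.37, 0.524, 1.36 and 0.935 CPM in non-tumour 1 to 4. Tumour 1 was the highest, tumours 2 and 4 were level with non-tumour 1, and tumour 3 was level with the other non-tumour libraries. Cd34 was the only member with a positive log2 fold change, 0.82 (SE 0.78), and its highest and lowest profiles differed 5.95-fold. It also had the fewest reads: tumour 1 had 116 (95% Poisson interval 4.36 to 6.33 CPM), tumour 3 had 14 (0.485 to 1.49 CPM), and non-tumour 2 had 9 (0.240 to 0.995 CPM). Such intervals cover counting error only. Markers of mesothelium, the covering of the liver's surface, were also high in tumour 1. The sum of 5 of them was 30.1 CPM in tumour 1 and 1.91 to 3.86 CPM in the other tumours, against 0.699 to 1.97 CPM in the non-tumour libraries. Their part in the Cd34 value of tumour 1 was not tested. In bulk tissue, fewer endothelial cells cannot be told apart from less RNA of these genes per cell.

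**Figure D2:**
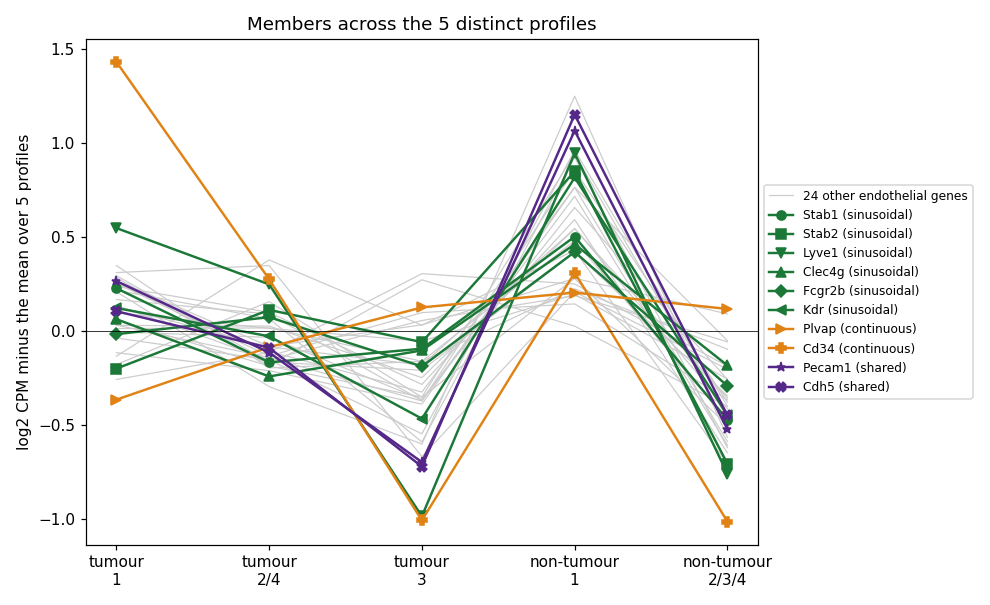
Log2 CPM of each member minus its mean over the 5 distinct profiles (y axis), with lines joining the values of one gene and grey lines for 24 other genes shared by endothelial cells. Sinusoidal (green) and shared (purple) genes peak in non-tumour 1, while Plvap stays nearly level and Cd34 is highest in tumour 1.

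The direction of the comparison depended on which non-tumour piece was used. With all 5 profiles, 9 of the 10 members had a negative log2 fold change, with a median of -0.27, against 6529 of 13650 genes and a median of 0.01 over all genes tested. Without non-tumour 1, 9 of the 10 were positive, with Lyve1 at 0.82, Stab2 at 0.64, Stab1 at 0.45, Pecam1 at 0.37 and Kdr at 0.33. Plvap, at -0.23, was then the only negative one. Without non-tumour 2/3/4, 9 were negative, with Cdh5 at -1.35 and Pecam1 at -1.20. In these 2 settings 1 non-tumour profile remained, which is assumed to vary like the tumour profiles. Cd34 stayed positive and Plvap negative in every setting run, but Cd34 fell to 0.02 without tumour 1. None of the 10 passed the test in any of 13 alternative settings, and the lowest adjusted p was 0.0530, for Cdh5 in edgeR without a filter on low counts.

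**Figure D3:**
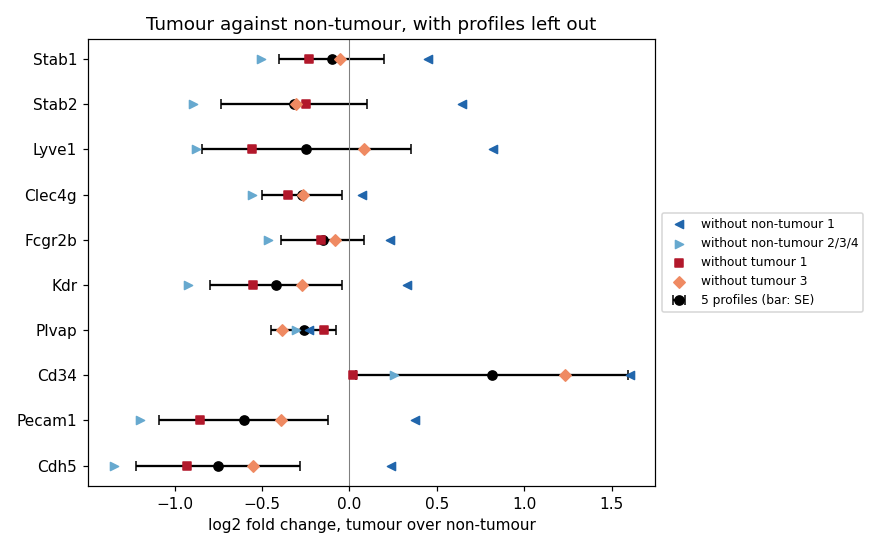
Log2 fold change of tumour over non-tumour (x axis) for each member from the 5 profiles (black, bar for SE) and with 1 profile left out (coloured). Without non-tumour 1 every member but Plvap is on the positive side. Without non-tumour 2/3/4 all but Cd34 are negative, as they are with all 5 profiles, and more strongly so.

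Setting each member against Pecam1 and Cdh5 of the same library gives its level relative to shared endothelial genes. This quantity is the log2 CPM of a member minus the mean log2 CPM of Pecam1 and Cdh5, and it is described without a test. Plvap had relative levels of 0.36, 1.07, 1.74 and 0.78 in tumours 1 to 4, against 0.01, 1.35, 1.61 and 1.57 in non-tumour 1 to 4. It was thus lowest in non-tumour 1 and tumour 1 and highest in tumour 3. Plvap reads were 1.40 to 3.86 times those of Pecam1 in the tumours, and 1.19 to 3.73 times in the non-tumour libraries.

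Cd34 had relative levels of -1.78, -2.61, -3.32 and -2.69 in tumours 1 to 4, against -3.82, -4.26, -2.97 and -3.42 in non-tumour 1 to 4. Counted by profile the means were -2.58 ± 0.77 in tumours (SD, n = 3) and -3.69 ± 0.19 in non-tumour tissue (SD, n = 2). Counted by library the groups overlapped, because non-tumour 3, with 20 Cd34 reads, lay above tumour 3.

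Among the sinusoidal genes, Kdr kept the most even relative level, with 0.83, 1.01, 1.14 and 0.92 in tumours 1 to 4, against 0.60, 0.81, 1.00 and 0.98 in non-tumour 1 to 4. Stab2 was less even, at 0.66, 1.36, 1.69 and 1.15 in tumours 1 to 4, against 0.78, 0.73, 0.76 and 0.98 in non-tumour 1 to 4. Counted by profile, tumours 2/4 and 3 thus held more Stab2 per unit of Pecam1 and Cdh5 than both non-tumour profiles, while tumour 1 held less. The mean difference of tumours minus non-tumour tissue in these relative levels was 0.40 for Stab2, 0.49 for Stab1, 0.36 for Lyve1, 0.29 for Clec4g, 0.41 for Fcgr2b and 0.21 for Kdr, all on the log2 scale. With Tek, Tie1 and Egfl7 in place of Pecam1 and Cdh5, it was -0.083 for Stab2, -0.20 for Clec4g, -0.27 for Kdr and -0.23 for Plvap, which had 0.25 with Pecam1 and Cdh5. Without non-tumour 1, and with Pecam1 and Cdh5 again, it was -0.19 for Clec4g, -0.029 for Fcgr2b and -0.50 for Plvap, and it fell to 0.18 for Stab1 and 0.046 for Kdr. The sign for several members thus depended on the genes used for comparison or on non-tumour 1, while Cd34 stayed positive in each of these settings. Pecam1 and Cdh5 themselves had the most negative log2 fold changes of the members, -0.60 and -0.75. Subtracting them therefore shifts the relative difference of every other member upward.

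**Figure D4:**
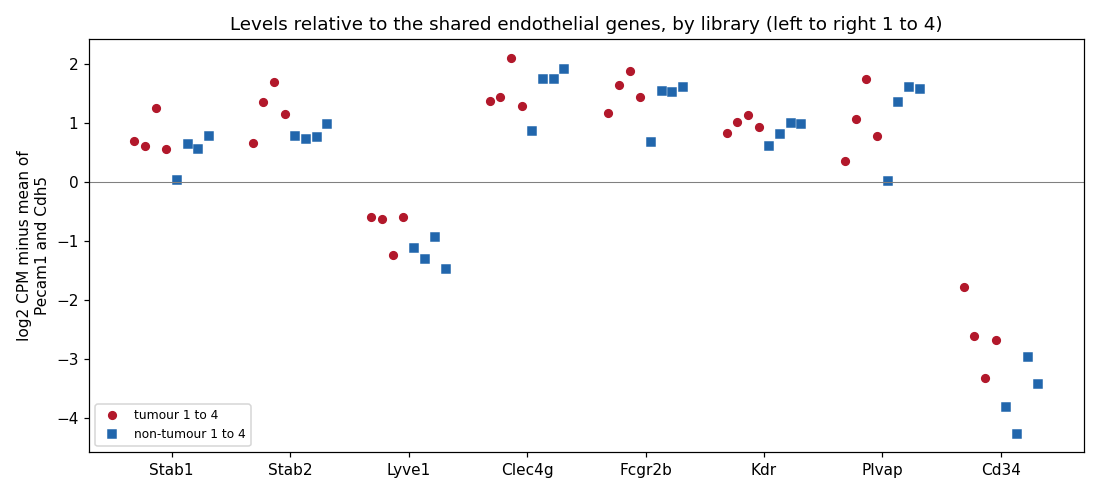
Log2 CPM of each member minus the mean of Pecam1 and Cdh5 (y axis), with the 4 tumour libraries (red circles) to the left of the 4 non-tumour libraries (blue squares) for each gene. Plvap runs from 0.36 to 1.74 in tumours and from 0.01 to 1.61 in non-tumour libraries, and Cd34 has its highest value, -1.78, in tumour 1.

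Per kilobase of exon, the members covered a wide range of levels. Clec4g averaged 19.0 ± 4.02 CPM per kilobase over the 5 profiles and Plvap 15.5 ± 2.32 (SD, n = 5). Their ranges overlapped, and Clec4g was the higher in 4 of 5 profiles. Fcgr2b followed at 7.34 ± 1.47 CPM per kilobase, below Plvap in all 5 profiles. Cdh5 at 4.95, Stab2 at 4.06, Kdr at 3.53, Lyve1 at 3.21, Stab1 at 2.53 and Pecam1 at 2.49 CPM per kilobase came next, and each of these overlapped its neighbour in range. Cd34 was last at 0.323 ± 0.244 CPM per kilobase, below Pecam1 in all 5 profiles. These levels depend on the annotated exon length, which is 1987 bases for Plvap and 10288 for Stab1.

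The genes whose pattern over the 5 profiles lay nearest to a member were sought among 12049 genes with a mean of at least 1 CPM. Likeness was the root mean square difference of centred log2 CPM, and it is a description over 5 profiles. Nearest to Stab2 were Cyth4 (0.040), Kit (0.073), a receptor of mast cells and progenitors, and Lilra5 (0.080). Stab2's own spread on this scale was 0.50. The nearest member to Stab2 was Kdr (0.27), at rank 200. Nearest to Plvap were Gfm2 (0.044), 2610507I01Rik (0.048) and Pafah2 (0.050), next to a spread of 0.21 in Plvap itself. Nearest to Cd34 were Cdr2 (0.13), Tent5a (0.16) and Angpt2 (0.16), with a spread of 0.92 in Cd34. Angpt2, a secreted ligand of the endothelial receptor TEK, stood at 2.23, 1.03 and 0.443 CPM in tumour profiles 1, 2/4 and 3, against 1.36 and 0.420 CPM in non-tumour 1 and 2/3/4.

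Promoter sequence from RefSeq (GRCm38.p6, 250 bases before to 50 after the start of the gene) matched 6 of the 10 members: Stab1, Stab2, Clec4g, Fcgr2b, Kdr and Cd34. ETS factors, which bind a GGAA core, are widely used by endothelial genes, so the windows were searched for AGGAAG on both strands. It was present in 4 of the 6, Stab1, Stab2, Clec4g and Cd34, against 35.4% of all 32851 promoters of this length. The GATA motif AGATAA was present in 0 of the 6, against 11.2% of all promoters, and the E-box CANNTG in 4 of the 6, against 72.3%. The windows of 3 members are shown: Stab2, which was highest in non-tumour 1, Clec4g, which had the highest mean level per kilobase, and Cd34, which was highest in tumour 1. Capitals mark AGGAAG or its reverse complement, which begins 40 bases before the start in Stab2 and 142 bases before it in Cd34. Clec4g holds 3 copies, beginning 123, 86 and 82 bases before the start, of which the last 2 overlap. A match is a run of letters and not a shown binding site. The windows lie at chr10:87007893-87008192, minus strand, for Stab2, at chr8:3720602-3720901, minus strand, for Clec4g and at chr1:194938571-194938870, plus strand, for Cd34, each printed 5′ to 3′ along the gene.
Stab2: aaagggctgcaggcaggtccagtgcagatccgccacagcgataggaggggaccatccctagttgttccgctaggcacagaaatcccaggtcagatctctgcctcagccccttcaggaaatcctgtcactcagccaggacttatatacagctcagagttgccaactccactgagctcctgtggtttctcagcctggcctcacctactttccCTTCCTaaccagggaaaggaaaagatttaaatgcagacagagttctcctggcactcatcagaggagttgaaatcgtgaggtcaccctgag
Clec4g: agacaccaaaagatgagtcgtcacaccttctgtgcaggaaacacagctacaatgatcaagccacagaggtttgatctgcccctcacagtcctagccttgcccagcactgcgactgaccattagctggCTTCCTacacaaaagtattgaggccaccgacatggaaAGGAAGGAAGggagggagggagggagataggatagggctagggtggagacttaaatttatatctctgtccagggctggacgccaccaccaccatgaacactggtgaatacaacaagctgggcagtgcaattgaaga
Cd34: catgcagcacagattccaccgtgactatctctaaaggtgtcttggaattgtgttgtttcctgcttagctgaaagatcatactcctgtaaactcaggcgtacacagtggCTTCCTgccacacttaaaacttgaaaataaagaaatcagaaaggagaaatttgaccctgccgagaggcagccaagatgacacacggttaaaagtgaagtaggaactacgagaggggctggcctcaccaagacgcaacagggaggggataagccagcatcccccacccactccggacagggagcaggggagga

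Other endothelial genes were described from lists by their counts, and 0 of them passed the test over all genes, although Dnase1l3 did without the filter on low counts. Of 24 further genes shared by endothelial cells, 18 had a negative and 6 a positive log2 fold change, with a median of -0.15, and 20 were highest in non-tumour 1. Eng, endoglin, a coreceptor of the TGF-beta family, stood at 40.0, 37.4 and 33.1 CPM in tumour profiles 1, 2/4 and 3, against 73.5 and 41.8 CPM in non-tumour 1 and 2/3/4. Ptprb, the phosphatase VE-PTP, stood at 49.4, 40.5 and 30.8 CPM, against 87.6 and 34.1 CPM in the same profiles. S1pr1, a receptor for sphingosine 1-phosphate, varied less, with 54.4, 68.7 and 48.3 CPM, against 74.8 and 65.6 CPM.

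Of 16 further sinusoidal genes 15 were tested, all 15 had a negative log2 fold change (median -0.35), and 13 were highest in non-tumour 1. Dnase1l3, a secreted nuclease, stood at 37.8, 32.0 and 34.3 CPM in tumour profiles 1, 2/4 and 3, against 81.4 and 37.2 CPM in non-tumour 1 and 2/3/4. Ehd3, an endocytic trafficking protein, stood at 45.7, 43.3 and 46.4 CPM, against 85.0 and 49.8 CPM. Both were higher in non-tumour 1 than in every other profile, which were close to each other. Ctsl, a lysosomal protease that most cells make, stood at 476, 485 and 459 CPM in the tumour profiles, against 481 and 594 CPM in the non-tumour profiles.

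Genes of continuous vessels and their basement membrane were less uniform. Of 18 such genes 13 were tested, 7 with a positive and 6 with a negative log2 fold change (median 0.0048), and 6 were highest in non-tumour 1. The basement membrane collagen Col4a1 stood at 38.5, 34.2 and 21.1 CPM in tumour profiles 1, 2/4 and 3, against 38.9 and 24.1 CPM in non-tumour 1 and 2/3/4. Its partner Col4a2 stood at 24.01, 21.7 and 17.4 CPM, against 27.6 and 16.1 CPM. Cd9, a tetraspanin that many cell types carry, stood at 49.7, 42.3 and 12.8 CPM, against 21.8 and 21.3 CPM. Cd9 was thus high in tumours 1 and 2/4 and low in tumour 3.

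In a list of VEGF, angiopoietin and Notch ligands and receptors, 14 of 15 genes were tested, 9 with a negative and 5 with a positive log2 fold change (median -0.21). The lists overlap: Flt1, Tek and Tie1 are also among the 24 shared genes, and Flt4 among the 16 sinusoidal genes. Each of these had a negative log2 fold change and is counted in both lists. Vegfa, the main ligand of Kdr, stood at 66.4, 59.2 and 118.8 CPM in tumour profiles 1, 2/4 and 3, against 59.9 and 55.96 CPM in non-tumour 1 and 2/3/4. Vegfa was highest in tumour 3 and lowest in non-tumour 2/3/4, and Kdr was low in both. The log2 fold change of Vegfa was 0.48 (SE 0.33, adjusted p = 0.995 in edgeR). The coreceptor Nrp1 stood at 34.6, 50.4 and 31.2 CPM, against 68.4 and 36.1 CPM, and the receptor Flt4 at 16.7, 22.8 and 13.9 CPM, against 31.4 and 13.1 CPM.

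**Figure D5:**
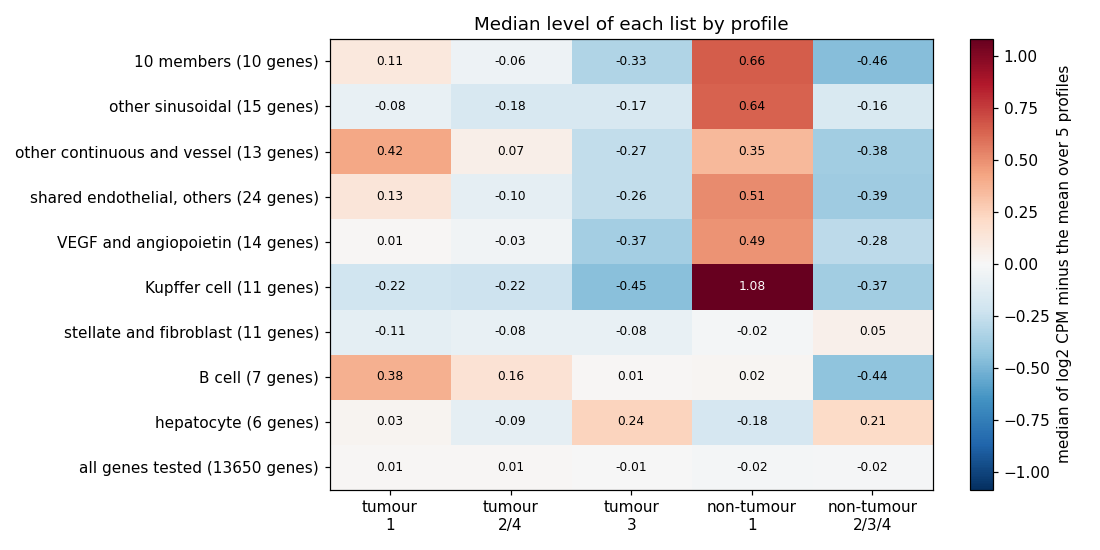
Median over the genes of each list (rows, number of tested genes in brackets) of log2 CPM minus the mean over the 5 profiles (colour and printed value), with tumour profiles in the 3 left columns and non-tumour profiles in the 2 right ones. The members, the other endothelial lists and the Kupffer cell list are above 0 in non-tumour 1, at 0.66 for the 10 members and 1.08 for Kupffer cell markers.

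Of the lists for other cell types, that of Kupffer cells moved with the members in non-tumour 1. Its median of centred log2 CPM there was 1.08. The median was 0.21 for platelets, 0.019 for B cells, -0.018 for both the stellate and the lymphatic list, -0.18 for hepatocytes and -1.24 for mesothelium. Kupffer cells, the resident macrophages of the sinusoid, carry Stab1, Lyve1 and Fcgr2b in part. All 11 of their markers were highest in non-tumour 1, and their summed level was 226 to 269 CPM in tumours, against 245 to 249 CPM in non-tumour 2 to 4 and 703 CPM in non-tumour 1. Among them Cd5l stood at 74.8, 77.4 and 50.8 CPM in tumour profiles 1, 2/4 and 3, against 194.5 and 56.6 CPM in non-tumour 1 and 2/3/4. Clec4f and Csf1r were also highest in non-tumour 1, at 119.7 and 86.7 CPM. Among the tumour profiles Clec4f was highest in tumour 3, where Cd5l was lowest. For 4 of the 11 markers every tumour profile was below the non-tumour profiles, which held for 8.34% of all genes. In edgeR on the 5 profiles 3 of the 11 had an unadjusted p under 0.05, against 3.3% of all genes. Cd5l and Csf1r passed the test only without the filter on low counts, of the settings run. As given above, 9 of the 10 members were highest in non-tumour 1. The part of Kupffer cells in the levels of Stab1, Lyve1 and Fcgr2b was not tested.

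The summed level of 6 hepatocyte genes, to which Alb contributes most, was lowest in non-tumour 1. It was 125747 to 171620 CPM in tumours, against 111251 to 115874 CPM in non-tumour 2 to 4 and 99155 CPM in non-tumour 1. Taken singly, Alb and Apoa1 were lowest in non-tumour 1, but the other hepatocyte genes were not. Ttr and Cyp2e1 were lowest in tumour 1, Serpina1c in tumour 2/4 and Cps1 in tumour 3. Markers of stellate cells and fibroblasts summed to 193 to 246 CPM in tumours, against 227 to 235 CPM in non-tumour libraries. Dcn contributed most to these sums. Of the 11 tested, 3 were highest in non-tumour 1, which 20.5% of all genes were. For 3 of the 11 every tumour profile was below the non-tumour profiles, which held for 8.34% of all genes. B cell markers summed to 6.21 to 7.06 CPM in tumours, against 3.93 to 6.65 CPM in non-tumour libraries. Platelet markers summed to 2.18 to 3.17 CPM, against 1.63 to 3.33 CPM, with Gp1bb at 0 in every library. Of the lymphatic markers Ccl21a had a count of 0 in every library. The limit set for such a count was 0.136 CPM in tumour 1 and 0.204 CPM in non-tumour 3. Reads that map to several places were not counted, and any sequence that Ccl21a shares with other genes was not measured. Its count of 0 thus does not show that it was absent. Nor does that of Gp1bb, whose shared sequence and overlap with other genes were not measured. Most of the lymphatic sum, 106 to 150 CPM in tumours and 87.6 to 113 CPM in non-tumour libraries, came from Prox1 and Reln, which hepatocytes and stellate cells also make.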

How the data were processed

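Each of the 8 deposited tables lists unnormalised counts for 54838 genes of mouse liver. The authors made the counts over exons with featureCounts 1.6.2, per the file headers, using Ensembl release 95, GRCm38 and strand setting 2, and left out reads that mapped to several places. STAR 2.5.0 and Subread 1.6.2 are named in the submitters' processing notes. The exon lengths deposited beside the counts were used for levels per kilobase. Symbols came from a table for the same build (54723 IDs matched). No member overlapped a gene on its own strand, and 7 overlapped genes on the other strand.

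Libraries of a group under 10 of chi-square per degree of freedom (genes with at least 20 reads in the pair) were summed into 1 profile. Tumour was compared with non-tumour in edgeR 4.0.16 (R 4.3.3; TMM, filterByExpr with minimum count 10 and total 15, robust glmQLFit, glmQLFTest), with Benjamini-Hochberg adjustment over all genes and a threshold of 0.05. SEs are the log2 fold change over the root of F. Log2 CPM values use a prior count of 2. The limit for a count of 0 was set at 3 counts. The script was tested on simulated data.

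The members, lists, summing of libraries and alternatives were chosen with earlier results of these data known. Named genes are the members, the 3 most abundant genes of each list and the 3 genes nearest in pattern to Stab2, Plvap and Cd34. The B cell, platelet, stellate, mesothelial and hepatocyte lists are given mainly as sums. Alternatives were other scalings and filters, DESeq2 1.42.0, 8 separate libraries with and without a replicate block, 1 library per profile, and leaving out each profile.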

Additional observations from a re-analysis of the deposited data

How the results depend on the processing

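The count of called genes, 0 in the edgeR test of 5 profiles, was 427 without a filter on low counts, 2 with DESeq2, 56 with 8 separate libraries, and 0 to 5 with each profile left out in turn (5 without tumour 3). Of the genes in the other lists, 13 of 119 were called without the filter, next to 427 of 24531 genes in all, and 1, Lrat, with 8 libraries. The 13 were the sinusoidal gene Dnase1l3, the Kupffer cell markers Marco, Fcna, Vsig4, Cd5l, Timd4, Adgre1 and Csf1r, and Lrrn4, Pdpn, Upk3b, Gpm6a and Msln. The causes were not tested. With 8 libraries, which weight the near-identical ones more, log2 fold changes turned positive for Stab1 (0.12), Stab2 (0.13), Lyve1 (0.22) and Fcgr2b (0.067). With the replicate block these were 0.17, 0.31, 0.34 and 0.10, Kdr was 0.028, and 0 genes were called. Deviations of same-numbered libraries correlated at 0.35, -0.147, 0.286 and -0.124 for numbers 1 to 4, and the labels give the numbers no shared source. With 2 distinct non-tumour profiles, these values cannot settle whether the numbers pair the samples.

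With each profile left out in turn, log2 fold changes ran from -0.51 to 0.45 for Stab1, -0.90 to 0.64 for Stab2, -0.88 to 0.82 for Lyve1, -0.56 to 0.071 for Clec4g, -0.46 to 0.23 for Fcgr2b, -0.92 to 0.33 for Kdr, -1.20 to 0.37 for Pecam1 and -1.35 to 0.24 for Cdh5. Without tumour 3 Lyve1 was at 0.09. With Tek, Tie1 and Egfl7 as comparison genes, relative levels differed by 0.012 for Stab1, -0.083 for Stab2, -0.12 for Lyve1, -0.070 for Fcgr2b, -0.20 for Clec4g, -0.27 for Kdr and -0.23 for Plvap. With each profile left out, the relative differences turned negative for Clec4g (-0.19) and Fcgr2b (-0.029) without non-tumour 1, and for Plvap (-0.50 without non-tumour 1, -0.12 without tumour 3). The other scalings, filters and 1 library per profile kept the sign of each member. Cd34 had the fewest reads of the members, 9 to 116 per library.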

Other observations

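Esm1, Gja5 and Efnb2, of the continuous vessel list, were chosen after their values were seen. Esm1, endocan, a secreted proteoglycan of tip cells, stood at 9.004, 4.60 and 0.570 CPM in tumour profiles 1, 2/4 and 3, against 6.70 and 1.07 CPM in non-tumour 1 and 2/3/4. The arterial connexin gene Gja5 stood at 2.05, 1.40 and 0.190 CPM in the tumour profiles, against 0.958 and 0.543 CPM in the non-tumour profiles. The arterial ligand gene Efnb2 stood at 3.91, 3.34 and 1.33 CPM, against 4.08 and 1.75 CPM. All 3 were lowest in tumour 3, and tumour and non-tumour profiles overlapped for each. In tumour 3 Gja5 had 3 reads, the number set as the limit for a count of 0, Esm1 had 9 and Efnb2 had 21. Their log2 fold changes were 0.32 (SE 1.09) for Esm1, 0.75 (SE 0.84) for Gja5 and 0.0048 (SE 0.56) for Efnb2, and none passed the edgeR test over all genes.

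Marco, a scavenger receptor of Kupffer cells also chosen after its values were seen, stood at 32.3, 11.1 and 2.85 CPM in tumour profiles 1, 2/4 and 3, against 80.5 and 6.42 CPM in non-tumour 1 and 2/3/4.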
